A study of Mus musculus with 2 samples.

Results

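The collagen genes described here are 30 listed genes of the collagen family, out of the 31053 genes counted in both libraries. They were chosen by name and compared between a Chrna5 knockout (Chrna5-/-) library and a wild-type (WT) library in fibroblasts, dermal papilla cells and keratinocyte states of mouse dorsal skin. Of the 44 collagen genes in the files by symbol, 14, such as Col17a1, are not listed. All 30 listed genes were found in the files by symbol and matched to the genome annotation by Ensembl identifier. By role, 8 form fibrils, 6 form the network of basement membranes, 4 form beaded filaments, 3 associate with fibrils, and the others are multiplexins, short-chain network collagens, transmembrane collagens, the anchoring fibril collagen and 2 further types.

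Both groups were female mice of 6 to 8 weeks on a C57BL/6 background, written as C57BL/6N for growth and as C57BL/6J for extraction. Both received the vaseline base of a cream, and skin was taken on day 7. The extraction protocol also mentions skin after imiquimod, whereas the labels and the series design name vaseline. The WT group carries no deletion in the labels, and the knockout line lacks Chrna5, which encodes the alpha5 subunit of the nicotinic acetylcholine receptor. After collagenase digestion, live cells that excluded SytoxBlue were sorted. Which part of Chrna5 was deleted, and how many mice went into each library, the sources used here do not give. Each genotype had 1 library, so no test was made, and a difference of genotype cannot be told apart from a difference between 2 libraries.

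Collagens are trimers of alpha chains wound into a triple helix. Fibril-forming chains (types I, III, V, XI and XXVII among those listed) assemble into the fibrils of the dermis, which fibroblasts mainly produce, and fibril-associated chains such as those of types XII, XIV and XVI coat them. Type IV chains build the sheet of the basement membrane under the epidermis and around the hair follicle, type VII ties that sheet to the dermis by anchoring fibrils, and types XV and XVIII lie in the basement membrane zone. The dermal papilla, a cluster of mesenchymal cells at the base of the hair follicle, is set apart from other dermal fibroblasts by its own matrix and signalling genes.

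The libraries held 10741 (WT) and 9696 (knockout) barcodes with 139673385 and 125458721 UMIs, each UMI being 1 counted RNA molecule, and 9675 and 8869 cells were kept. The deposited barcodes of the libraries shared 34 sequences. Chrna5 itself was nearly unmeasured, with 11 UMIs (0.0859 CPM, the count per 1000000 UMIs) over all kept WT cells and 2 (0.0174 CPM) over all kept knockout cells, so it checks the labels only weakly. Cells fell into 22 clusters, with the collagen genes left out of the clustering, and clusters were named from marker lists. The fibroblast-like class (clusters 1 and 21) held 273 WT and 282 knockout cells, the dermal papilla-like class (cluster 0) 585 and 508, and the keratinocyte-like pool (12 clusters) 7574 and 7092. Fibroblast and dermal papilla markers fitted these names: the 13 fibroblast markers summed to 27708 and 32851 CPM in the fibroblast-like class, and the 16 dermal papilla markers to 19223 and 19331 CPM in the dermal papilla-like class. Cluster 9, in the basal-like pool, had no marker of its own class among its 10 leading genes and 1 of the Langerhans cell list, so keratinocyte pools are given with cluster numbers.

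The UMIs of all cells of 1 class and library were added up and scaled to CPM, and each ratio is knockout CPM over WT CPM. A gene counted as measured in a class with at least 20 UMIs over both libraries. It is called higher or lower where the ratio was at least 1.5 either way and its exact conditional binomial 95% interval left out 1. The 95% interval follows each ratio in parentheses and covers counting error only, not the spread between mice or libraries.

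The place of most collagens was the same in both libraries. Over the 8 classes set side by side in the heat map, 27 of the 30 genes had their highest CPM in the same class in WT and knockout: 19 in fibroblast-like cells, 4 in dermal papilla-like cells (Col13a1, Col15a1, Col23a1 and Col26a1), 2 in basal-like keratinocytes (Col4a6 and Col7a1), Col18a1 in outer root sheath-like keratinocytes and Col27a1 in T and innate lymphoid-like cells. The 3 whose highest class differed were Col4a5, Col11a1 and Col16a1. Together the 30 genes made up 2.37% of all UMIs in WT and 1.80% in knockout fibroblast-like cells, 0.657% and 0.604% in dermal papilla-like cells, and 0.0320% and 0.0280% in keratinocytes. These shares leave out Col17a1, which is not among the 30 and stood at 1011 CPM in WT and 919 CPM in knockout keratinocytes. All of the listed fibril-forming genes but Col27a1 were thus highest in mesenchymal classes in both genotypes, while Col4a6, Col7a1 and Col18a1 were highest in keratinocyte classes in both. Col4a5 was highest in fibroblast-like cells in WT and in basal-like cells in the knockout.

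**Figure D1:**
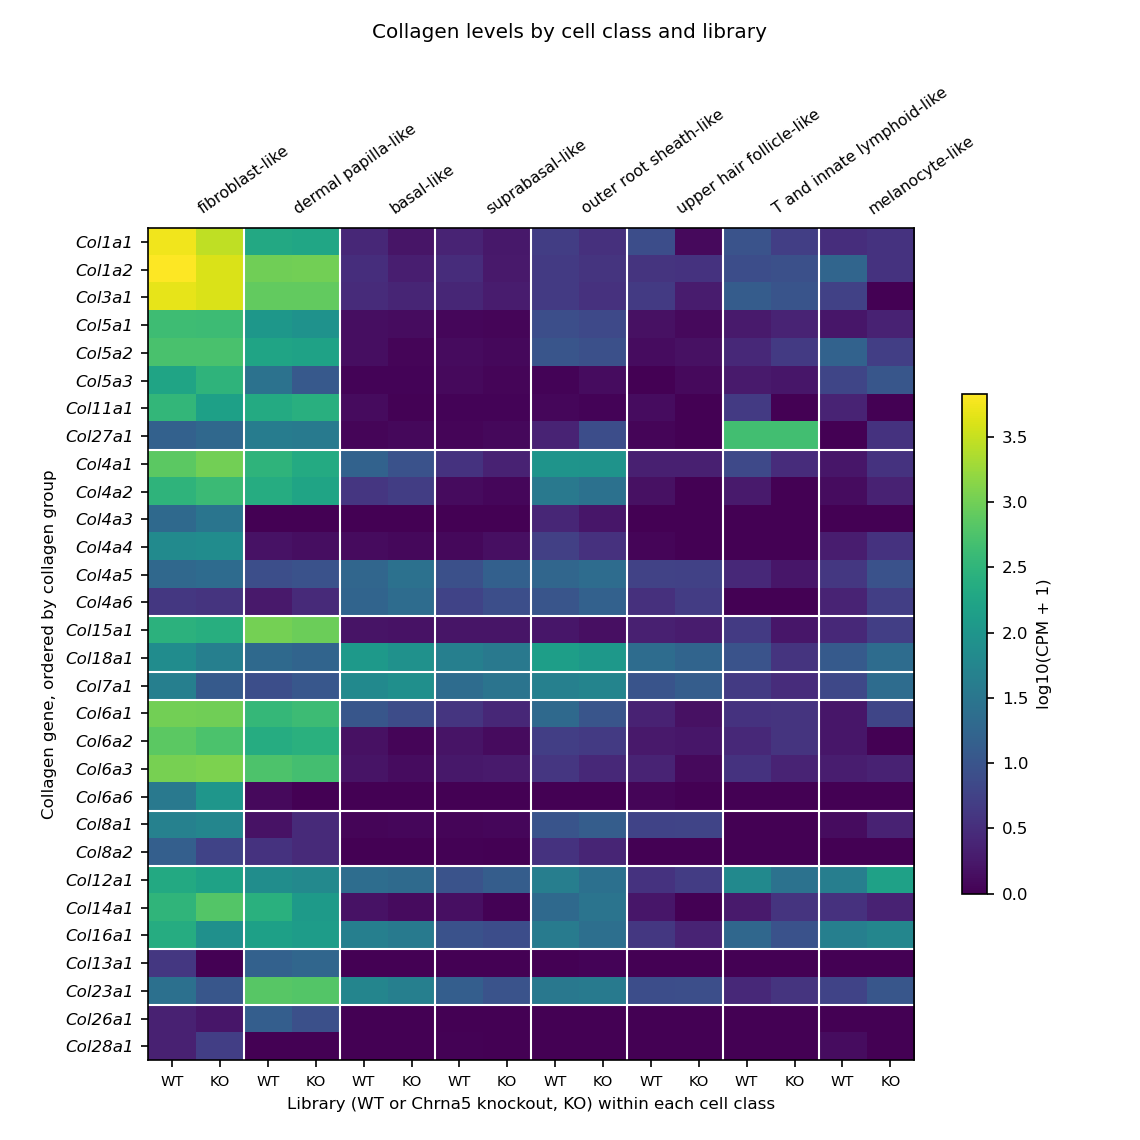
Colour gives log10(CPM + 1) of each collagen gene (rows, ordered by collagen group, white lines between groups) in the WT and knockout (KO) library of 8 cell classes (columns). Colours are to be read along a row, since gene length is not accounted for, and most rows are brightest in the fibroblast-like columns of both libraries.

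In fibroblast-like cells the type I chains, the main fibril collagen of the dermis, were at a lower level in the knockout library, while the fibril-associated type XIV chain was at a higher one. Of the 30 genes, 26 were measured there, 3 were higher and 8 lower, and their median log2 ratio was -0.07, against 0.03 over all 9623 measured genes. Over all measured genes in the class, 5.46% were called higher and 5.91% lower. Of the 11 called genes, Col6a6 and Col23a1 were called the same way within cluster 21, the larger of the 2 clusters of the class. Col4a6, Col13a1, Col26a1 and Col28a1 did not reach 20 UMIs.

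Among the fibril-forming chains, Col1a1 (the alpha1 chain of type I) was counted at 8783 UMIs (5512 CPM) in the WT library and 4138 UMIs (2833 CPM) in the knockout library, a ratio of 0.514 (0.495 to 0.533). Col1a2, its partner chain, had 10654 UMIs (6687 CPM) in the WT library and 5909 UMIs (4045 CPM) in the knockout library, a ratio of 0.605 (0.586 to 0.625). Col3a1, the single chain of type III, stood at 4791 CPM in WT and 4129 CPM in the knockout, a ratio of 0.862 (0.833 to 0.891), which is neither. So within the 3 major fibril chains the share of Col1a1 went from 32.4% to 25.7% of their UMIs and that of Col3a1 from 28.2% to 37.5%. The type V chains, which seed fibrils and limit their width, did not move alike. Col5a1 had a ratio of 0.961 (0.860 to 1.07) and Col5a2 of 1.03 (0.930 to 1.13), whereas Col5a3 was at 270 UMIs (169 CPM) in the WT library and 454 UMIs (311 CPM) in the knockout library, a ratio of 1.83 (1.57 to 2.14). Col11a1, a type XI chain best known from cartilage, was lower at 546 UMIs (343 CPM) in the WT library and 215 UMIs (147 CPM) in the knockout library, a ratio of 0.430 (0.365 to 0.504), and Col27a1 had only 23 and 27 UMIs.

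The lower type I and XI levels came with an uneven number of cells in cluster 1. This cluster held 114 of the 273 WT fibroblast-like cells (41.8%, exact 95% interval 35.8 to 47.9) and 20 of the 282 knockout cells (7.09%, 4.39 to 10.7). It supplied 83.7% of the WT Col1a1 UMIs of the class and 46.3% of those in the knockout, and 99.8% and 100% of the Col11a1 UMIs. Cluster 21, with 159 and 262 cells, gave 85.4% and 98.2% of the Col14a1 UMIs and 92.6% and 100% of those of Col6a6. A cluster mostly of 1 library may be that library and not a cell state, and the share of cells and the genotype cannot be told apart here.

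Within cluster 21 the type I chains were at nearly the same level in both libraries. Col1a1 stood at 1621 CPM in WT and 1676 CPM in the knockout, a ratio of 1.03 (0.967 to 1.11), Col1a2 at 3108 and 3130.4 CPM, a ratio of 1.01 (0.959 to 1.06), and Col3a1 at 3679 and 4043 CPM, a ratio of 1.10 (1.05 to 1.15). Of 23 collagens measured in cluster 21, 1 was higher and 1 lower, beside 4.12% and 2.89% of all genes measured there. The higher one was Col6a6, at 50 UMIs (56.7 CPM) in the WT library and 148 UMIs (112 CPM) in the knockout library, a ratio of 1.97 (1.42 to 2.77). The lower one was Col23a1, at only 14 and 7 UMIs. Col14a1 had 484 CPM in WT and 684 CPM in the knockout, a ratio of 1.41 (1.26 to 1.59) that stays under 1.5, and Col5a3 a ratio of 1.21 (1.03 to 1.42). The medians of the 23 collagens and of all genes were 0.05 and 0.07 on the log2 scale.

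In cluster 1 the few knockout cells had levels above WT for some collagens and below WT for others, Col3a1 (4390 and 670 UMIs), Col7a1 and Col16a1 among the latter. Col1a1 stood at 7354 UMIs (10336 CPM) in the WT library and 1916 UMIs (14223 CPM) in the knockout library, a ratio of 1.38 (1.31 to 1.45), and Col11a1 at 545 UMIs (766 CPM) in the WT library and 215 UMIs (1596 CPM) in the knockout library, a ratio of 2.08 (1.77 to 2.44). Of 21 collagens measured in cluster 1, 8 were higher (Col4a1, Col4a2, Col5a3, Col6a1, Col6a3, Col11a1, Col12a1 and Col27a1) and Col16a1 was lower, beside 8.9% and 7.3% of all genes. The knockout value of Col1a1 there rests on 20 cells, of which 1 held 337 of the 1916 UMIs. So the class ratio of 0.514 for Col1a1 lay below the ratios of both clusters that make up the class.

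**Figure D2:**
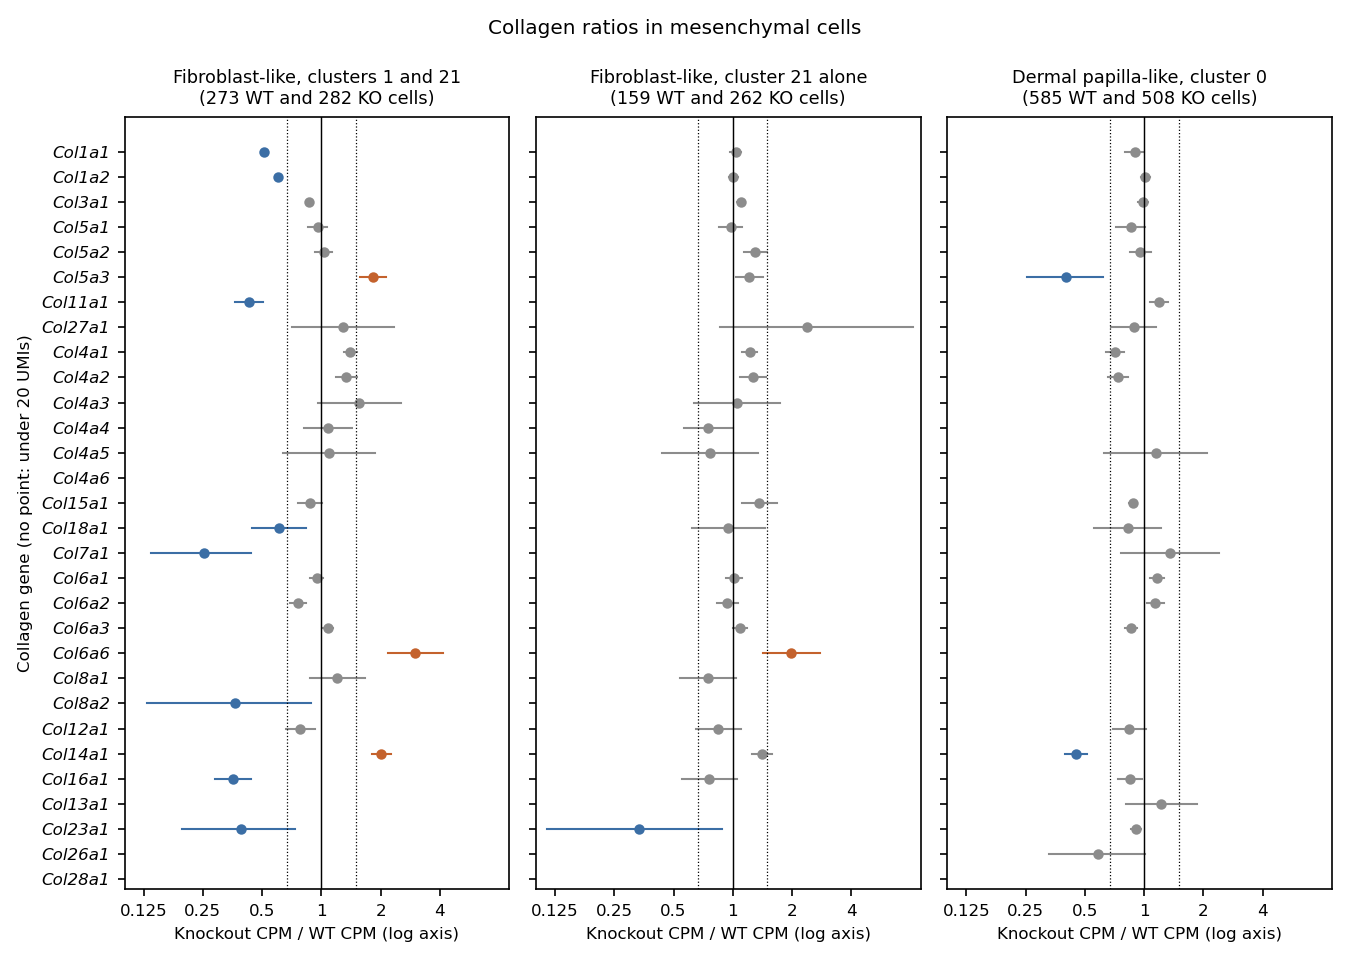
Points give knockout CPM over WT CPM on a log axis and lines the exact 95% interval (counting error only) for fibroblast-like cells, for their cluster 21 alone and for dermal papilla-like cells. Orange marks higher, blue lower and grey neither, and dotted lines mark 1.5 either way. Col1a1, at 0.514 in the class, lies at 1.03 in cluster 21.

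None of the basement membrane chains of type IV was called in fibroblast-like cells. Col4a1 stood at 719.9 CPM in WT and 1009.8 CPM in the knockout, a ratio of 1.4 (1.30 to 1.52), and its partner Col4a2 at 306 and 410.1 CPM, a ratio of 1.34 (1.19 to 1.52). Both lay above 1 in the class and in each of its clusters, and both stayed under 1.5 in the class. Col4a3 (31 and 44 UMIs), Col4a4 (105 and 104) and Col4a5 (30 and 30) had intervals that include 1. The anchoring fibril chain Col7a1, which epidermis and fibroblasts both make, was lower at 69 UMIs (43.3 CPM) in the WT library and 16 UMIs (11.0 CPM) in the knockout library, a ratio of 0.253 (0.137 to 0.440). Of its UMIs, 89.9% in WT and 56.2% in the knockout came from cluster 1, where its ratio was 0.767 (0.335 to 1.55). Of the multiplexins, Col15a1 had 287 CPM in WT and 252 CPM in the knockout, a ratio of 0.878 (0.764 to 1.01), and Col18a1, whose end part is released as endostatin, was lower with 114 and 64 UMIs, a ratio of 0.612 (0.444 to 0.839).

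The beaded filament chains of type VI, which link cells to the fibrils around them, stayed close to WT apart from 1 chain. Col6a1 had 1038 CPM in WT and 981 CPM in the knockout, a ratio of 0.945 (0.880 to 1.01), Col6a2 a ratio of 0.762 (0.696 to 0.834) and Col6a3 a ratio of 1.07 (1.00 to 1.15). Col6a6, a chain that can stand in the place of the alpha3 chain, was higher at 54 UMIs (33.9 CPM) in the WT library and 148 UMIs (101 CPM) in the knockout library, a ratio of 2.99 (2.18 to 4.16), and was found in 13.6% of WT and 29.8% of knockout cells. After each cell was thinned to 1000 UMIs these shares were 2.41% and 8.98%. Both libraries had Col6a6 almost entirely in the fibroblast-like class, with 1 and 0 UMIs in dermal papilla-like cells.

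Of the fibril-associated chains, Col14a1, which binds fibrils of stretched dermis and tendon, was higher at 500 UMIs (314 CPM) in the WT library and 924 UMIs (633 CPM) in the knockout library, a ratio of 2.02 (1.81 to 2.25). It was found in 50.5% of WT and 67.0% of knockout cells, and in 21.3% and 39.8% after thinning. Col16a1 was lower at 369 UMIs (232 CPM) in the WT library and 121 UMIs (82.8 CPM) in the knockout library, a ratio of 0.358 (0.289 to 0.440), and Col12a1 had 206 CPM in WT and 162 CPM in the knockout, a ratio of 0.782 (0.659 to 0.928). In cluster 21 alone Col16a1 had a ratio of 0.761 (0.553 to 1.05). The short-chain and transmembrane collagens were sparse in this class. Col8a1 had 75 and 83 UMIs (ratio 1.21), Col8a2 was lower with 21 and 7, a ratio of 0.364 (0.131 to 0.888), and Col23a1 was lower with 39 and 14, a ratio of 0.392 (0.196 to 0.737).

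Markers of other cells differed between the libraries in the same class. The 8 dermal sheath markers (smooth muscle genes such as Acta2 and Tagln) summed to 879 CPM in WT and 516 in the knockout, with 7 of 8 detected in each (Lmod1 at 0), and the 16 dermal papilla markers to 606 and 305 CPM, with 15 and 13 detected. The 10 lymphoid markers summed to 447 and 227 CPM, the 6 adipocyte markers to 244 and 499.7 CPM (Adipoq, Plin1 and Cidec at 0 in both) and the 7 basal keratinocyte markers to 2000.2 and 1784 CPM. The 7 suprabasal keratinocyte markers went the other way from the basal ones, with 417 CPM in WT and 743 CPM in the knockout. The median share of mitochondrial UMIs was 2.28% in WT and 1.05% in knockout fibroblast-like cells. The part of these differences in the collagen ratios was not tested.

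Sub-clusters of the mesenchymal cells, again made without collagen genes, showed which cells carried each collagen. Sub-cluster 4, with Lrrc15, Acta2 and Acan among its leading genes, had 74 WT and 24 knockout cells, of which 56 were from cluster 1 and 42 from the dermal papilla-like cluster. Collagens made up 3.52% of its UMIs, the highest share of the 9 sub-clusters, and the sum of the 8 dermal sheath markers was highest there too, at 3082 CPM. Per library, Col1a1 stood there at 9927 CPM in WT and 11247 CPM in the knockout and Col11a1 at 1158 and 1333 CPM, with ratios of 1.13 and 1.15. Sub-cluster 5, led by Serpina3n, with Lum and Ccl19 among its leading genes, held 68 WT cells and 2 knockout cells, with Col1a1 at 7153 CPM in WT. The 13 fibroblast markers summed to 2906 CPM in sub-cluster 4 and to 40569 in sub-cluster 5, and the 16 dermal papilla markers to 4469.6 and 450.5. The name fibroblast-like may therefore not describe the 56 cells of sub-cluster 4 that cluster 1 holds. These sums also take in the 42 cells from the dermal papilla-like cluster, and none was made for the 56 alone. The sub-clusters with the highest Col1a1 were thus found mainly in the WT library, and in sub-cluster 4 the level of Col1a1 per UMI was close in both. Of 21 collagens measured in sub-cluster 4, Col27a1 was higher (21 and 16 UMIs) and Col23a1 lower (176 and 35 UMIs), beside 4.87% and 5.06% of all genes.

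The other fibroblast-like sub-clusters, 2 (led by Smpd3 and Cxcl13, 70 and 115 cells) and 3 (led by Hmcn2 and Myoc, 79 and 136 cells), had lower type I levels. Col1a1 stood at 1785 and 1619.9 CPM in sub-cluster 2 and at 1681 and 1855 CPM in sub-cluster 3, WT first. Of 16 collagens measured in sub-cluster 2, Col6a6 was higher with 3 and 40 UMIs, a ratio of 8.87 (2.83 to 44.8), and none was lower, beside 4.74% and 2.93% of all genes. Of 21 in sub-cluster 3, none was higher and Col4a4 was lower with 80 and 86 UMIs, a ratio of 0.646 (0.471 to 0.887), beside 4.5% and 2.96%. Col14a1, higher in the class, had ratios of 1.46 (1.21 to 1.77) and 1.27 (1.08 to 1.5) in the 2 sub-clusters, and Col5a3 had 1.09 and 1.07. Col4a1 was concentrated in sub-cluster 3, at 1396 and 1535 CPM, against 226 and 246 CPM in sub-cluster 2.

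**Figure D3:**
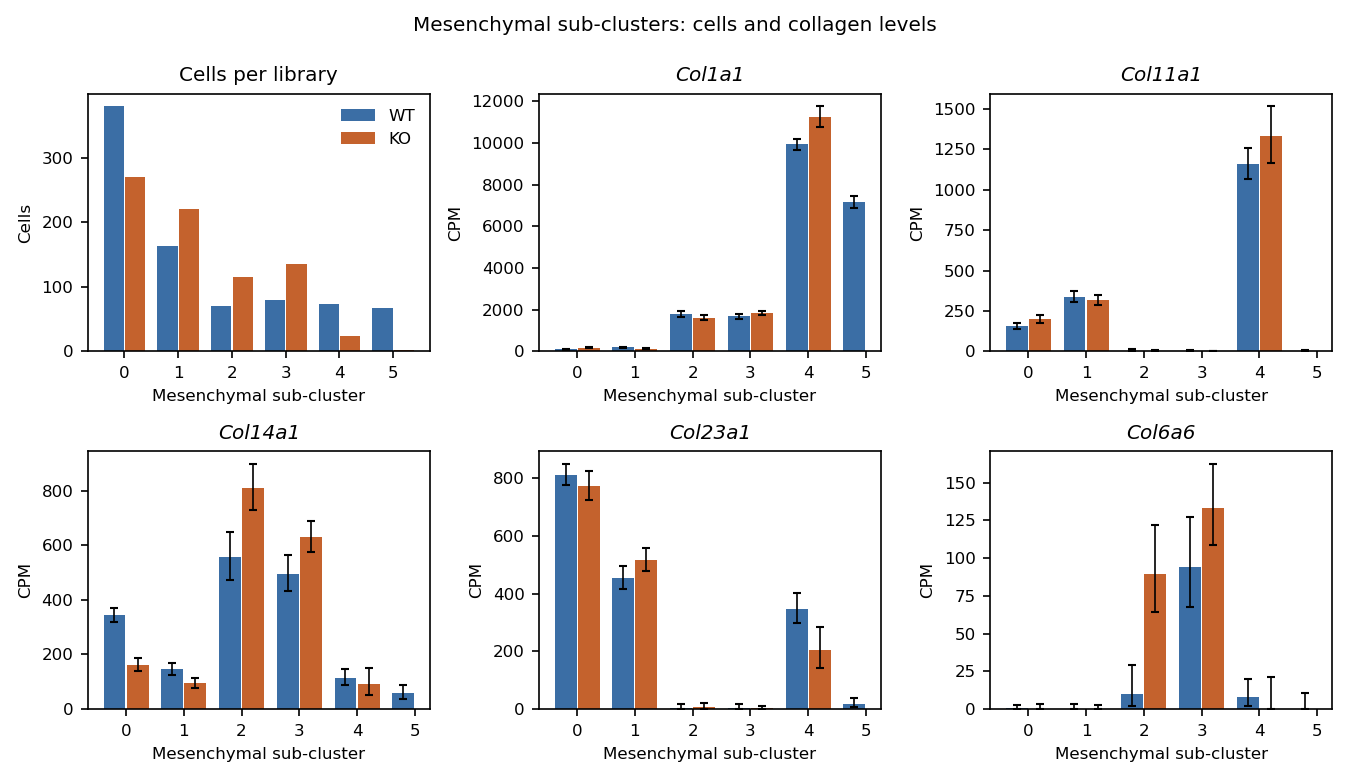
Bars give the cells and the CPM of 5 collagen genes in WT and knockout (KO) for mesenchymal sub-clusters 0 and 1 (dermal papilla-like) and 2 to 5, with exact Poisson 95% intervals of the count. No CPM is drawn for the knockout in sub-cluster 5, which held 2 cells, and the 2 bars of Col1a1 in sub-cluster 4 stand at 9927 and 11247 CPM above 74 and 24 cells.

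In dermal papilla-like cells most collagens stood close to the WT level, with Col14a1 and Col5a3 lower. Of 23 collagens measured, none was higher and 2 were lower, beside 3.56% and 4.0% of all 11399 measured genes. The median log2 ratio was -0.18 for the collagens and 0.04 for all genes. Without a fold limit of 1.5, 16 of the 23 ratios lay below 1, some of them with intervals that include 1, such as those of Col3a1 and Col5a2. The share of all measured genes with a ratio below 1 is not given, so this count does not set collagens apart. Not measured were Col4a3, Col4a4, Col4a6, Col6a6, Col8a1, Col8a2 and Col28a1, of which Col4a3 and Col28a1 had no UMI in either library.

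Col14a1 was counted at 985 UMIs (264 CPM) in the WT library and 315 UMIs (119 CPM) in the knockout library, a ratio of 0.450 (0.395 to 0.511). It was found in 55.7% of WT and 30.9% of knockout cells, and in 20.9% and 11.4% after thinning to 1000 UMIs. Col5a3 had 98 UMIs (26.3 CPM) in the WT library and 28 UMIs (10.6 CPM) in the knockout library, a ratio of 0.402 (0.254 to 0.617), and was found in 14% of WT and 4.72% of knockout cells. Both genes were thus lower here and higher in the fibroblast-like class.

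The collagens with their highest level in this class had ratios within the limit, or, for Col26a1, an interval that includes 1. Col23a1, a transmembrane collagen, stood at 688 CPM in WT and 626 CPM in the knockout, a ratio of 0.910 (0.855 to 0.968), and was found in 90.3% of WT and 85.0% of knockout cells. Col15a1, a multiplexin of the basement membrane zone, had 1054 and 924 CPM, a ratio of 0.877 (0.833 to 0.922). Col13a1, the other transmembrane collagen, had 53 and 46 UMIs, a ratio of 1.22 (0.804 to 1.85), and Col26a1 48 and 20 UMIs, a ratio of 0.586 (0.329 to 1.01). Col18a1 had a ratio of 0.829 (0.555 to 1.22).

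No type I or III chain was called in these cells. Col1a1 stood at 202 CPM in WT and 181 CPM in the knockout, a ratio of 0.894 (0.795 to 1.00), Col1a2 at 1001 and 1016 CPM, a ratio of 1.02 (0.966 to 1.07), and Col3a1 at 817 and 806 CPM, a ratio of 0.987 (0.933 to 1.04). Col1a1 made up 10.0% and 9.03% of the UMIs of these 3 chains, against 32.4% and 25.7% in fibroblast-like cells. Col5a1 and Col5a2 had ratios of 0.853 (0.722 to 1.00) and 0.955 (0.842 to 1.08), Col11a1 of 1.19 (1.07 to 1.32) and Col27a1 of 0.884 (0.674 to 1.15). Col11a1 was found in 60.5% of WT and 60.2% of knockout cells, so the gene is widespread in this class, whereas in fibroblast-like cells it was found in 13.6% of WT and 4.26% of knockout cells.

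Among the other chains, the main type IV pair had ratios below 1 that stayed within the limit of 1.5. Col4a1 had 308 CPM in WT and 219 CPM in the knockout, a ratio of 0.711 (0.643 to 0.787), and Col4a2 229.8 and 169 CPM, a ratio of 0.735 (0.654 to 0.824). Col4a5 and Col7a1 were near the measuring limit, with 27 and 22 UMIs and 27 and 26 UMIs. Type VI chains had ratios of 1.16 (1.07 to 1.26) for Col6a1, 1.14 (1.03 to 1.26) for Col6a2 and 0.856 (0.798 to 0.917) for Col6a3. Col12a1 and Col16a1 had ratios of 0.842 (0.691 to 1.02) and 0.848 (0.739 to 0.973).

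The 2 main sub-clusters of the dermal papilla-like class differed in their collagens. Sub-cluster 0, with Ndnf and Notum among its leading genes, held 380 WT and 270 knockout cells, and sub-cluster 1, with Sox2 and Sostdc1, 163 and 221. Col23a1 and Col15a1 were higher in level in sub-cluster 0 (812 and 774 CPM, and 1175 and 1137 CPM) than in sub-cluster 1 (454 and 517 CPM, and 856 and 765 CPM), WT first. Col11a1 went the other way, with 157 and 199 CPM in sub-cluster 0 and 339 and 319 CPM in sub-cluster 1. Both orders held in each library.

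The lower Col14a1 of the class was found in both sub-clusters, with 344 and 162 CPM in sub-cluster 0, a ratio of 0.469 (0.399 to 0.551), and 146 and 94.0 CPM in sub-cluster 1, a ratio of 0.645 (0.506 to 0.821). Col5a3 was lower in sub-cluster 0, with 78 and 17 UMIs and a ratio of 0.409 (0.227 to 0.698), and had 17 and 14 UMIs in sub-cluster 1. Col1a1 went opposite ways, with a ratio of 1.58 (1.30 to 1.91) in sub-cluster 0 and 0.644 (0.526 to 0.788) in sub-cluster 1, which is hidden in the class ratio of 0.894; the difference between the sub-clusters was not tested. Of 22 collagens measured in each, 1 was higher and 2 lower in sub-cluster 0, beside 4.88% and 3.53% of all genes, and none higher and 3 lower in sub-cluster 1, beside 3.45% and 2.84%. The third lower gene of sub-cluster 1 was Col12a1, with a ratio of 0.646 (0.512 to 0.814). The median share of mitochondrial UMIs in the class was 2.62% in WT and 1.75% in the knockout, and its part in these ratios was not tested.

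Type IV collagen is encoded by 3 pairs of genes that lie head to head, so that both chains of a pair are read outward from neighbouring starts. The sequences at these starts are shown for this layout, and the places of the chains are given below. The chains of a pair did not always share their classes: Col4a5 was measured in fibroblast-like and dermal papilla-like cells, where Col4a6 was not. In the GENCODE annotation of GRCm38, Col4a1 (minus strand) starts at chr8:11312826 and Col4a2 (plus strand) at chr8:11312805, so that their first exons share 22 bases. Col4a4 (minus strand) and Col4a3 (plus strand) start on chromosome 1 with 71 bases between them, the Col4a3 start being that of a transcript with a retained intron. Col4a6 (minus strand) and Col4a5 (plus strand) start on the X chromosome with 1308 bases between them, of which the 250 before Col4a6 and the 216 before Col4a5 are given. The sequences are from RefSeq (GRCm38.p6), each 5′ to 3′ on the strand of the gene named last, and the table held an entry for 24 of the 30 collagens.
Col4a1/Col4a2, chr8:11312805-11312826, plus strand of Col4a2: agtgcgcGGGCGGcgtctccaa
Col4a3/Col4a4, chr1:82586850-82586920, minus strand of Col4a4: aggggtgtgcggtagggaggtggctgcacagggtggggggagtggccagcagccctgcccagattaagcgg
Col4a6, chrX:141474077-141474326, minus strand: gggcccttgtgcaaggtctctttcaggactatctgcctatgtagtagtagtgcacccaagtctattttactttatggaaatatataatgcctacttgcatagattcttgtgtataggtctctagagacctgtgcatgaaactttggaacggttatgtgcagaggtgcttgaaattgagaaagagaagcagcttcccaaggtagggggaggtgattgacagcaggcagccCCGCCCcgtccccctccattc
Col4a5, chrX:141475169-141475384, plus strand: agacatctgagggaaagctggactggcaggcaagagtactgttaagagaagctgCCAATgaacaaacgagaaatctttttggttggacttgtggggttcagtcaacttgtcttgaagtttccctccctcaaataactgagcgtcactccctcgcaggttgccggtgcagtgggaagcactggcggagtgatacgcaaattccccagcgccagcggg
Capitals mark matches, on either strand, to the GC box core GGGCGG, the CCAAT box or the TATA box TATAAA, which do not overlap one another here. The Col4a1/Col4a2 overlap and the Col4a6 stretch each hold 1 GC box core, the Col4a5 stretch holds 1 CCAAT box, and no TATAAA was found in the 4 stretches. Over the same positions of all 32851 promoter entries, GGGCGG was present in 4.09% of the 22-base windows and 32.7% of the 250-base windows, and CCAAT in 30.5% of the 216-base windows. Such matches describe the letters only.

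In keratinocytes the collagens were parted by whether their CPM was over 3 times that in lymphoid cells. Of the 30 genes 26 were measured in the keratinocyte-like pool, 1 was higher and 13 lower, beside 2.7% and 7.81% of all 14627 measured genes, and their median log2 ratio was -0.61 against -0.03. Lymphoid cells, which should lack fibroblast collagens, were taken as a yardstick for molecules that may reach a droplet as free RNA. Free RNA was not measured directly. Lymphoid cells held fewer UMIs than keratinocytes, so the same number of free molecules gives a higher CPM there. In 11 of the 26 the CPM was over 3 times that of lymphoid-like cells in both libraries: Col4a1, Col4a2, Col4a3, Col4a4, Col4a5, Col4a6, Col7a1, Col8a1, Col8a2, Col18a1 and Col23a1. The lymphoid-like class held only 1161500 WT and 1447726 knockout UMIs. The sparse Col4a3, Col4a4, Col8a1 and Col8a2 could therefore pass this limit only with no lymphoid UMI. For these genes the limit does not show a level above that of lymphoid cells. Of the 11 genes over the limit, none was higher and 4 were lower (Col4a1, Col4a3, Col4a4 and Col8a2). The other 9 lower genes were fibril-forming and beaded filament chains not over 3 times the lymphoid level. After each cell was thinned to 1000 UMIs, 2 collagens were higher and 3 lower in the pool, and the share of all genes called after thinning is not given. Marker sums differed in the pool too, WT first: 2894 and 1651 CPM for 9 outer root sheath markers and 1074 and 443 CPM for 7 upper follicle markers. The 7 basal markers stood at 21224 and 22474 CPM and the 7 suprabasal markers at 7582 and 8509 CPM. Their part in the collagen ratios of the pool was not tested.

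Those 9 were Col1a1, Col1a2, Col3a1, Col5a1, Col5a2, Col6a1, Col6a2, Col6a3 and Col11a1, with ratios from 0.291 (Col11a1) to 0.640 (Col3a1). Col1a1 stood at 2.37 and 0.845 CPM in keratinocytes, a ratio of 0.356 (0.278 to 0.453), below the 8.61 and 4.14 CPM of T and innate lymphoid-like cells, where the ratio was 0.481 (0.144 to 1.46). A Col1a1 UMI was found in 2.55% of WT and 1.14% of knockout cells of the keratinocyte pool, at a median depth of 14434 and 14149.5 UMIs. In lymphoid-like cells it was found in 2.09% of WT and 1.03% of knockout cells, at a median of 2627 and 2831 UMIs. Within Col1a1, Col1a2 and Col3a1 together, the share of Col1a1 was 33.6% and 23.6% in keratinocytes, 31.2% and 20% in lymphoid-like cells and 32.4% and 25.7% in fibroblast-like cells. The lymphoid-like shares rest on few UMIs. Whether the type I and III values in keratinocytes are background was not tested. In the upper hair follicle-like pool (cluster 2) 1 WT cell held 44 of the 59 Col1a1 UMIs, beside 1 in the knockout. Of 11 collagens measured in that pool, none was higher and 2 (Col1a1 and Col3a1) were lower, beside the 2.71% and 3.56% of all genes given below for cluster 2.

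Col4a5 and Col4a6, which are among the type IV chains of the epidermal basement membrane, had knockout levels above WT in most keratinocyte clusters. In the whole pool Col4a5 had 1655 UMIs (14.2 CPM) in the WT library and 2260 UMIs (21 CPM) in the knockout library, a ratio of 1.48 (1.38 to 1.57), and Col4a6 1336 UMIs (11.5 CPM) in the WT library and 1724 UMIs (16 CPM) in the knockout library, a ratio of 1.39 (1.30 to 1.5), both just under the limit of 1.5. Col4a5 was called higher in 7 of the 11 clusters where it was measured (3, 5, 8, 9, 12, 14 and 16) and lower in none. The share of all measured genes called higher was 2.71% in cluster 2, 4.03% in cluster 3, 9.13% in cluster 4, 3.17% in cluster 5, 2.7% in cluster 6, 3.77% in cluster 7, 2.14% in cluster 8, 5.58% in cluster 9, 3.7% in cluster 12, 3.14% in cluster 14, 2.82% in cluster 16 and 3.58% in cluster 18. The share called lower was 3.56% in cluster 2, 4.88% in cluster 3, 5.21% in cluster 4, 4.36% in cluster 5, 4.22% in cluster 6, 3.65% in cluster 7, 4.16% in cluster 8, 3.86% in cluster 9, 3.39% in cluster 12, 4.68% in cluster 14, 3.91% in cluster 16 and 2.61% in cluster 18. Col4a5 stood at 17.2 and 25.8 CPM in cluster 8, 18.7 and 27.7 CPM in cluster 7, 21.2 and 33.4 CPM in cluster 9 and 14.1 and 22.9 CPM in cluster 14, all basal-like, WT first. In these 4 clusters the knockout value was above the WT value with ratios of 1.5, 1.48, 1.58 and 1.62. Col4a5 did not differ in this way in cluster 4 (40.9 and 39.1 CPM) or cluster 2 (4.69 and 4.55 CPM). The clusters come from the same 2 libraries, so they do not replicate one another.

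Col4a6 lay above 1 in 10 of 11 clusters and was called higher in 3 of them (5, 9 and 12), for example at 18.1 and 33.4 CPM in cluster 9, a ratio of 1.84 (1.47 to 2.30). Its exception was cluster 3, with 20 and 17 UMIs. In the suprabasal-like pool (clusters 3, 5 and 6), Col4a5 was higher at 192 UMIs (7.55 CPM) in the WT library and 431 UMIs (14.1 CPM) in the knockout library, a ratio of 1.86 (1.57 to 2.22), and was found in 11.7% of WT and 19.9% of knockout cells. It was 1 collagen higher there of 15 measured, with 4 lower (Col1a1, Col1a2, Col4a1 and Col6a1), beside 4.26% and 4.48% of all genes. In the basal-like pool (clusters 7, 8, 9 and 14), none of 22 was higher and 6 were lower (Col1a1, Col1a2, Col4a1, Col5a2, Col6a2 and Col11a1), beside 3.9% and 5.07%, and Col4a5 and Col4a6 had ratios of 1.47 (1.36 to 1.59) and 1.33 (1.22 to 1.44).

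The Col4a1/Col4a2 pair was concentrated in a few keratinocyte clusters, and its ratio in the pool lay below that in the cluster with the highest level. Col4a1 was lower in the pool, at 3028 UMIs (26.0 CPM) in the WT library and 1660 UMIs (15.4 CPM) in the knockout library, a ratio of 0.592 (0.558 to 0.629), and Col4a2 had a ratio of 0.672 (0.605 to 0.747). By cluster, Col4a1 was concentrated in cluster 4 (led by Lhx2, Shisa2 and Lgr5), at 339 and 457 CPM, a ratio of 1.35 (1.25 to 1.46), and in the hair matrix-like cluster 18, at 122 and 133 CPM. In basal-like clusters 7 and 8 it stood at 5.23 and 4.0 CPM and at 8.70 and 8.57 CPM, and in cluster 9 at 37.1 and 31.9 CPM. Over the 10 clusters where it was measured, Col4a1 lay below 1 in 7, with a lowest ratio of 0.342. It was called lower in 3 (5, 14 and 16), beside 4.36%, 4.68% and 3.91% of all genes, and higher in none. Cluster 4 held 622 WT and 222 knockout cells. Col4a2 stood at 123 and 127 CPM in cluster 4 and 44.8 and 56.9 CPM in cluster 18, and its ratio lay above 1 in all 7 clusters where it was measured. With clusters weighted alike, the log2 ratio of Col4a1 in the pool was 0.26 in place of -0.76.

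Col4a3 and Col4a4 were sparse and were seen in outer root sheath-like cells. In that pool (clusters 4, 12 and 16) Col4a3 had 30 and 8 UMIs, a ratio of 0.443 (0.176 to 0.989), and Col4a4 80 and 28, a ratio of 0.582 (0.364 to 0.904). In the whole keratinocyte pool both were lower, with ratios of 0.360 (0.157 to 0.757) and 0.566 (0.401 to 0.792). The log2 ratio of Col4a4 there turned to 0.10 after thinning and to 0.34 without the unevenly split clusters 4, 6, 8, 9 and 18. In the basal-like pool Col4a4 had 17 and 14 UMIs. The 3 pairs thus differed in part in place: alpha1 and alpha2 in mesenchyme and cluster 4, and alpha3 and alpha4 at low level in fibroblast-like and outer root sheath-like cells. The alpha5 and alpha6 chains were found in basal-like and outer root sheath-like cells, and alpha5 in fibroblast-like cells too.

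Col7a1, the anchoring fibril chain, was found throughout the basal-like clusters. In the keratinocyte pool it had 5528 UMIs (47.5 CPM) in the WT library and 6387 UMIs (59.3 CPM) in the knockout library, a ratio of 1.25 (1.2 to 1.29), and was found in 43.6% of WT and 49.6% of knockout cells. Its ratio lay above 1 in 10 of 11 clusters, from 58.4 and 84.9 CPM in cluster 8 to 80.1 and 116 CPM in cluster 9, but was called higher only in cluster 3, at 6.60 and 10.9 CPM, among the 11. Col18a1 went the other way in level: it had 93.2 CPM in WT and 69.4 CPM in the knockout, a ratio of 0.745 (0.723 to 0.767), lay below 1 in 11 of 12 clusters with ratios from 0.692 to 1.12, and was called in none. Col16a1 lay below 1 in 10 of 12 clusters and had 31.3 CPM in WT and 25.5 CPM in the knockout, a ratio of 0.814 (0.774 to 0.855). By cluster, Col16a1 was called lower in cluster 4 and higher in cluster 18, the latter at a ratio of 2.64. Col23a1, present in basal-like cells as well as in the dermal papilla, had 37.1 and 31.2 CPM, a ratio of 0.841 (0.804 to 0.880), and was lower in suprabasal-like clusters 3 and 5. The short-chain collagens were scarce: Col8a1 had 221 and 176 UMIs, a ratio of 0.861 (0.702 to 1.05), and Col8a2 was lower with 52 and 18, a ratio of 0.374 (0.206 to 0.650). Col12a1 lay above 1 in 6 clusters and below in 6, and its level in the pool was under that of lymphoid-like cells (20.9 and 17.9 CPM against 64.6 and 26.2 CPM).

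**Figure D4:**
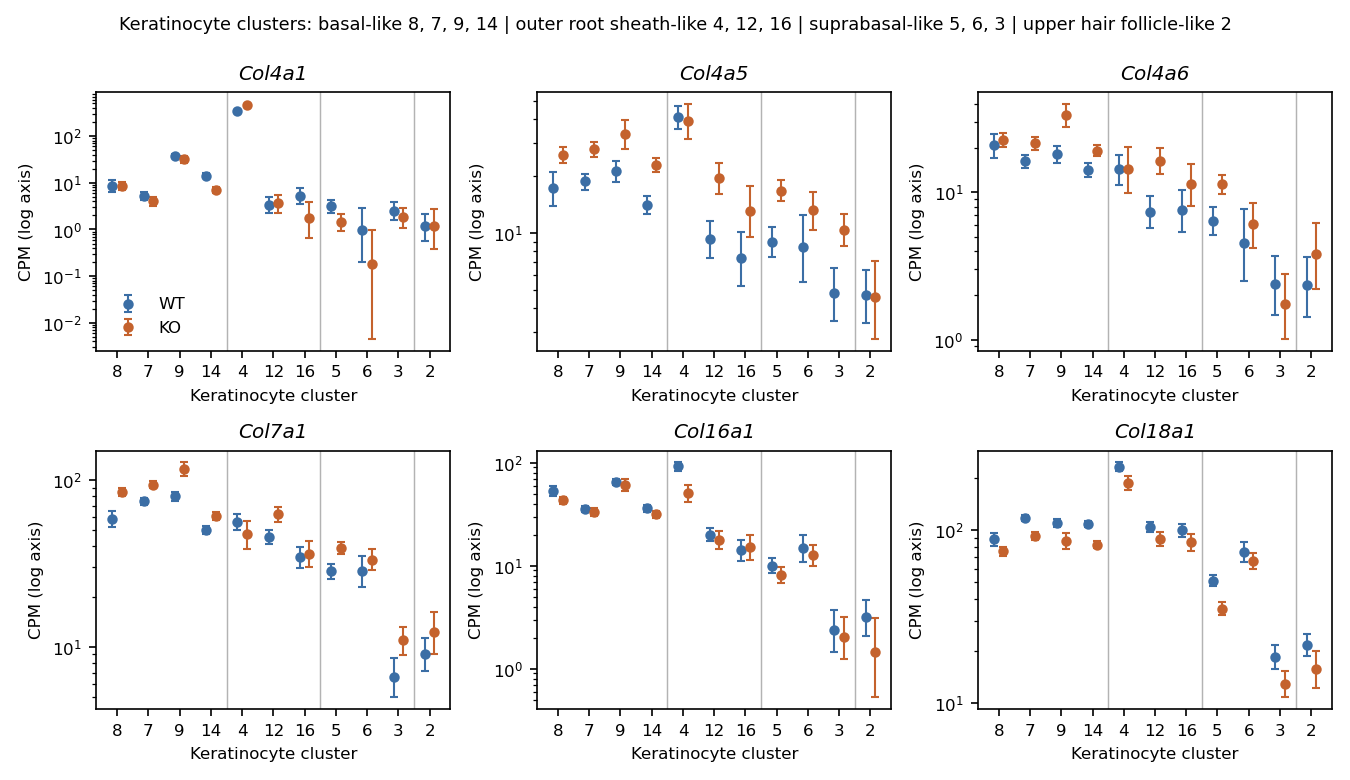
Points give the CPM of 6 collagen genes on a log axis in the WT and knockout (KO) library for 11 keratinocyte clusters, with exact Poisson 95% intervals of the count, and grey lines part the basal-like, outer root sheath-like, suprabasal-like and upper hair follicle-like clusters. Col4a5 is above WT in clusters 8, 7, 9 and 14, Col18a1 is below WT in every cluster drawn, and Col4a1 stands highest in cluster 4.

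In the outer root sheath-like pool collagens were called in both directions. Of 23 collagens measured, 3 were higher (Col4a6, Col14a1 and Col27a1) and 7 lower (Col1a1, Col4a3, Col4a4, Col6a1, Col6a3, Col12a1 and Col16a1), beside 2.52% and 4.28% of all genes. Col27a1 was the 1 collagen higher in the whole keratinocyte pool, with 50 and 101 UMIs and a ratio of 2.18 (1.54 to 3.13), and without the unevenly split clusters its log2 ratio there was -0.22. In cluster 4 Col14a1 had 354 UMIs (68.7 CPM) in the WT library and 329 UMIs (148 CPM) in the knockout library, a ratio of 2.15 (1.84 to 2.51), and Col27a1 18 and 78 UMIs, a ratio of 10.0 (5.95 to 17.8). The Col27a1 UMIs came from 17 WT and 39 knockout cells, and 0 and 2 of these had a UMI of Cd3e, Cd3g, Trdc, Cd7 or Ptprc. Among the cells of the cluster without a Col27a1 UMI, 33 and 10 had a UMI of these lymphoid markers. A Col14a1 UMI was present in 10 and 32 of the cells with Col27a1. Over the whole cluster it was present in 128 of 622 WT and 86 of 222 knockout cells. In the same cluster Col12a1 was lower at 119.7 and 72.3 CPM, a ratio of 0.604 (0.504 to 0.719), Col16a1 at 92.0 and 50.7 CPM, a ratio of 0.552 (0.445 to 0.679), and Col6a1 at 64.6 and 40.0 CPM, a ratio of 0.618 (0.484 to 0.784). Cluster 4 had 2 collagens higher and 3 lower of 23, beside 9.13% and 5.21% of all genes. In clusters 12 and 16 Col12a1 had ratios of 1.08 and 0.857 and Col16a1 of 0.892 and 1.07.

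Genes that work on collagen were read beside the chains in the same classes, with the WT and knockout CPM and the ratio after each gene, and the interval where it was called. Of 22 listed genes that fold and modify collagen chains in the endoplasmic reticulum, 21 were in the files. In fibroblast-like cells this list had 19 measured, 0 higher and 1 lower, beside 5.46% and 5.91% of all genes. The lower gene was Creb3l1, a transcription factor of collagen-secreting cells (159 and 80.1 CPM, ratio 0.504, 0.402 to 0.630). Other extremes of the list were Tmem38b (16.9 and 8.90 CPM, ratio 0.525) and, on the high side, the prolyl hydroxylase subunit P4ha1 (88.5 and 119.8 CPM, ratio 1.35) and P3h4 (29.5 and 36.3 CPM, ratio 1.23). In dermal papilla-like cells the list had 18 measured, 1 higher and 0 lower, beside 3.56% and 4.0% of all genes. The higher gene was Plod2, a lysyl hydroxylase that prepares collagen for crosslinks (207 and 457 CPM, ratio 2.21, 2.02 to 2.42), and P3h4 was next (45.9 and 55.5 CPM, ratio 1.21), with Plod1 (20.9 and 14.4 CPM, ratio 0.685) and Creb3l1 (16.1 and 11.3 CPM, ratio 0.703) lowest. In keratinocytes the list had 19 measured, 0 higher and 0 lower, beside 2.7% and 7.81% of all genes. Its extremes there were Fkbp14 (0.266 and 0.149 CPM, ratio 0.558), Plod2 (1.80 and 1.23 CPM, ratio 0.679), P3h3 (2.55 and 2.88 CPM, ratio 1.13) and P3h4 (13.8 and 16.8 CPM, ratio 1.22).

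Of 18 genes that process and crosslink collagen outside the cell, fibroblast-like cells had 15 measured. Of these, 2 were higher and 2 lower, beside 5.46% and 5.91% of all genes. Lox, the lysyl oxidase that starts crosslinks (132 and 221 CPM, ratio 1.67, 1.4 to 2.00), and Loxl3 (23.2 and 36.3 CPM, ratio 1.56, 1.01 to 2.45) were higher. Postn, a matrix protein that aids crosslinking (513 and 246 CPM, ratio 0.481, 0.423 to 0.545), and Loxl4 (28.2 and 9.58 CPM, ratio 0.339, 0.172 to 0.630) were lower. In cluster 21 alone the list had 2 higher and 1 lower of 14, beside 4.12% and 2.89% of all genes. Dermal papilla-like cells had 10 measured, 0 higher and 1 lower, beside 3.56% and 4.0% of all genes. The lower gene was Loxl4 (5.91 and 1.89 CPM, ratio 0.320, 0.0946 to 0.865), with Loxl2 (45.6 and 33.6 CPM, ratio 0.736) next lowest and Postn (76.0 and 112 CPM, ratio 1.47) and Pcolce (384 and 408 CPM, ratio 1.06) highest. Keratinocytes had 14 measured, 1 higher and 2 lower, beside 2.7% and 7.81% of all genes. Adamts14, which removes the N-terminal propeptide (11.3 and 17.2 CPM, ratio 1.52, 1.42 to 1.63), was higher, Fn1 (7.56 and 2.71 CPM, ratio 0.359, 0.313 to 0.410) and Tgm2 (0.275 and 0.0835 CPM, ratio 0.304, 0.128 to 0.652) were lower, and Pcolce2 had 0.335 and 0.399 CPM, ratio 1.19.

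Of 10 collagen receptor genes, fibroblast-like cells had 7 measured, 2 higher and 0 lower, beside 5.46% and 5.91% of all genes. The 2 higher were Ddr2, the receptor kinase for fibrillar collagen (321 and 492 CPM, ratio 1.53, 1.36 to 1.72), and the integrin Itga11 (81.0 and 131 CPM, ratio 1.62, 1.28 to 2.04), while Ddr1 (16.3 and 11.0 CPM, ratio 0.671) and Mrc2 (136 and 137 CPM, ratio 1.01) were lowest in ratio. Dermal papilla-like cells had 5 measured, 0 higher and 0 lower, beside 3.56% and 4.0% of all genes. The 5 ratios lay between Itga1 (59.9 and 40.4 CPM, ratio 0.675) and Ddr2 (206 and 181 CPM, ratio 0.878) at the low end and Ddr1 (19.6 and 22.7 CPM, ratio 1.16) and Itgb1 (347 and 350.1 CPM, ratio 1.01) at the high end. Keratinocytes had 7 measured, 0 higher and 1 lower, beside 2.7% and 7.81% of all genes. The lower gene was Itga1 (3.27 and 1.5 CPM, ratio 0.460, 0.380 to 0.554), with Itga2 (37.1 and 31.1 CPM, ratio 0.839) next and Ddr2 (6.66 and 8.93 CPM, ratio 1.34) and Mrc2 (8.63 and 9.12 CPM, ratio 1.06) highest. In cluster 21 alone 1 of 7 receptors was higher and none lower, beside 4.12% and 2.89% of all genes.

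Of 16 genes of TGF-beta signalling, a main inducer of fibril collagen genes, none was higher in the 3 classes. Over all measured genes, 5.46%, 3.56% and 2.7% were called higher in fibroblast-like, dermal papilla-like and keratinocyte-like cells. The shares called lower were 5.91%, 4.0% and 7.81%. Fibroblast-like cells had 3 lower, among them Tgfb2, a ligand (131 and 60.9 CPM, ratio 0.464, 0.358 to 0.598), and Ltbp1, which stores the latent ligand (134 and 84.2 CPM, ratio 0.630, 0.50 to 0.790), while Smad4 (75.3 and 103 CPM, ratio 1.36) and Skil (154 and 165 CPM, ratio 1.07) had the highest ratios. Dermal papilla-like cells had 4 lower, among them Tgfb3 (12.6 and 6.42 CPM, ratio 0.509, 0.274 to 0.903), Ctgf (76.5 and 44.6 CPM, ratio 0.582, 0.466 to 0.724) and Smad7 (255 and 163 CPM, ratio 0.639, 0.569 to 0.717), with Tgfbi (20.9 and 26.4 CPM, ratio 1.26) and Tgfb2 (72.5 and 90.6 CPM, ratio 1.25) highest. Keratinocytes had 4 lower, among them Ctgf (7.07 and 3.03 CPM, ratio 0.428, 0.375 to 0.487), Smad3 (14.1 and 6.98 CPM, ratio 0.497, 0.455 to 0.542) and Tgfb2 (4.05 and 2.50 CPM, ratio 0.616, 0.528 to 0.717), with Smad4 (70.9 and 79.8 CPM, ratio 1.13) and Tgfbr1 (13.8 and 16.1 CPM, ratio 1.17) highest. In cluster 21 alone 1 of 16 was lower, beside 2.89% of all genes measured there.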

How the data were processed

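Single-cell RNA of 1 WT and 1 Chrna5 knockout skin library was deposited by the authors as UMI counts per gene and barcode, whole numbers without normalization, per the file headers. Cell Ranger 3.0.2, Seurat 3.0 and mm10 are named per the submitters' processing notes, while the file headers give software version 3.1.0. Any filter before deposit is not stated there.

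Cells with at least 500 UMIs, 300 genes and at most 20% mitochondrial UMIs were kept (10160 WT and 9308 knockout). Each library was scored for doublets by Scrublet (scanpy 1.11.5), and in place of the caller's own threshold a score over 0.25 removed 485 (4.77%) and 439 (4.72%). After log scaling to 10000 UMIs a cell, 2000 variable genes other than the collagens, 30 components and 15 neighbours were clustered by the Leiden method (igraph 0.11.9, resolution 1, and 0.5 for mesenchymal sub-clusters). A cluster was named from the marker list with the highest scaled mean (at least 0.25) where at least 3 markers were found in 25% of its cells. Among keratinocyte lists, the number of markers among the cluster's 10 leading genes decided first and the scaled mean second. A shallow cluster with no such marker stayed unnamed. Classes with at least 100 cells in each library were compared.

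Class sums were given as CPM with exact Poisson, conditional binomial and Clopper-Pearson 95% intervals (scipy 1.17.1, Python 3.11.15), and a count of 0 was set to a floor of 3 counts in a ratio. The call rule was tried on simulated Poisson counts drawn from the WT sums of the fibroblast-like and dermal papilla-like classes. That simulation held no spread between cells, mice or libraries, so it cannot show how the rule fares with such spread. For shares of cells, each cell was thinned to 1000 UMIs, leaving out 24 WT and 26 knockout fibroblast-like cells and 24 and 18 dermal papilla-like cells below that depth. Gene positions were taken from GENCODE vM21 (GRCm38), counted from 1. In the annotation 6 collagens overlap a gene on the opposite strand and none overlaps one on the same strand (strand use in counting is not stated).

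The members, lists and call rule were chosen with earlier results of these data known. Named with values are all measured collagens in the mesenchymal classes, the keratinocyte collagens over 3 times the lymphoid level in both libraries or called, and the 2 highest and 2 lowest ratios of each list of collagen-related genes; single clusters, sub-clusters and further called genes were chosen after their values were seen. The values of 1 gene of these lists are not reported here. Alternatives covered doublets, cell filter, depth, scaling, weighting, cluster mix, clustering genes and resolution, free RNA, low counts, fold and keratin-rich cells. The restriction to sub-clusters with at least 50 cells in each library was chosen after seeing the data.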

Additional observations from a re-analysis of the deposited data

Results flagged for a closer look

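Col5a3, a type V chain, had opposite calls in the 2 mesenchymal classes: its ratio of knockout over WT was 1.83 in fibroblast-like cells and 0.402 in dermal papilla-like cells. Col14a1, a fibril-associated chain, had a ratio of 2.02 in fibroblast-like cells, 0.450 in dermal papilla-like cells and 1.53 in outer root sheath-like keratinocytes. With 1 library per genotype, the difference between the classes was not tested. Within fibroblast-like cluster 21 the ratios were 1.21 and 1.41, and neither gene was called there. In dermal papilla-like sub-clusters 0 and 1 Col14a1 had 0.469 and 0.645, both lower.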

How the results depend on the processing

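Over 9 counts and medians of the collagens, 111 of 132 alternative values kept the main value within the set range, and over 146 single-gene ratios 22 of 1991 turned direction; the cause was not tested unless named. The counts of called collagens below stand without the share of all genes called under the same setting. They therefore do not set collagens apart from other genes. In fibroblast-like cells, 3 collagens were higher and 8 lower in the main setting, beside 5.46% and 5.91% of all genes. The lower count was 4 with cells thinned to 1000 UMIs, 2 with clusters weighted alike, 1 without cluster 1, 5 at resolution 2, 5 at a minimum of 100 UMIs, 5 at a ratio of at least 2 and 0 over sub-clusters with at least 50 cells in each library. The higher count was 5 with no doublet removal, 6 at resolution 2, 1 without cluster 1 and 1 over those sub-clusters. With clusters weighted alike the log2 ratios of Col1a1, Col1a2, Col8a2, Col11a1 and Col23a1 were 0.41, 0.19, 0.87, 1.06 and 0.17, without cluster 1 those of Col1a1 and Col1a2 were 0.048 and 0.010, and over those sub-clusters those of Col1a1, Col7a1 and Col23a1 were 0.059, 0.32 and 0.54. In dermal papilla-like cells 1 collagen was lower after thinning. In keratinocytes, 1 higher and 13 lower became 0 higher with no doublet removal, 2 higher with TMM or median-of-ratios scaling, 2 higher and 3 lower after thinning, 3 lower with clusters weighted alike (median log2 -0.17), 7 lower without clusters 4, 6, 8, 9 and 18, and 4 lower at a ratio of at least 2. There the log2 ratios turned for Col4a4 (0.10) and Col6a3 (2.10) after thinning, Col4a1 (0.26), Col5a1 (0.059) and Col5a2 (0.22) with clusters weighted alike, and Col4a4 (0.34) and Col27a1 (-0.22) without those clusters. After thinning Col1a1 turned in suprabasal-like (0.66), outer root sheath-like (0.039) and upper hair follicle-like (0.42) cells and Col4a4 in outer root sheath-like cells (0.72), and with 5% free RNA subtracted Col1a1 turned in outer root sheath-like cells (0.87). Clusters weighted alike could not be run for single-cluster classes. No paired analysis was possible because each genotype has 1 library. Depth limits the sparse genes: Col4a3, Col8a2, Col26a1 and Col28a1 rest on few UMIs in most classes.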

Other observations

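Outside the mesenchyme and the keratinocytes, Col27a1 stood out in T and innate lymphoid-like cells (cluster 13, 431 WT and 484 knockout cells, with Cd3g, Trdc and Cd7 among its leading genes). This fibril-forming chain had 538 UMIs (463 CPM) in the WT library and 660 UMIs (456 CPM) in the knockout library there, a ratio of 0.984 (0.877 to 1.10), and was found in 58.0% of WT and 62.2% of knockout cells, or in 34.9% and 35.1% after thinning to 1000 UMIs. In fibroblast-like cells it had 14.4 and 18.5 CPM, in dermal papilla-like cells 39.7 and 35.1 CPM and in keratinocytes 0.429 and 0.937 CPM, all below its level in lymphoid-like cells. Over the 8 classes of the heat map no other collagen had its highest level in lymphoid-like cells in either library.

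Col12a1 and Col16a1, both fibril-associated, were found in melanocyte-like cells (cluster 15, 184 and 104 cells). Col12a1 stood there at 41.6 CPM in WT and 154 CPM in the knockout, and Col16a1 at 44.0 and 56.6 CPM. Keratin reads differed in the same class: Krt14 was at 1259.5 CPM in WT and 4498 in the knockout, and its part in the Col12a1 values was not tested. In cluster 11, which stayed unnamed and has Pax7, Myf5 and Des among its leading genes (27 and 30 cells), Col3a1 had 35 and 36 UMIs, Col4a1 26 and 30 and Col15a1 18 and 15.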
